A study of Homo sapiens with 2 samples.

Results

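Transcription factors that build the early kidney were followed in G401, a human cell line from a kidney tumor that was first classed as a Wilms tumor and later as a rhabdoid tumor. The set was chosen by gene name, with earlier results of these data known. It held 9 genes, WT1, PAX2, PAX8, SIX2, EYA1, SALL1, OSR1, FOXD1 and MEOX1, of 23452 gene symbols that had a value in both libraries. Each of the 9 occupied 1 row in each table, so no rows had to be summed. The data were 2 RNA sequencing libraries of G401, 1 from cells labelled with a control guide (sg-control) and 1 from cells labelled with a CRISPR guide against HOXB13, a posterior HOX transcription factor (sg1-HOXB13). Both came from cells in RPMI with 15% serum, harvested at 80% confluency, and whether the guided cells were a pool or a clone is not given in the sources used here. With 1 library per group there was no replicate error, so every difference below is a difference between these 2 libraries, called by a rule of size and carrying no p-value.

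In the embryonic kidney, nephrons arise from a cap of mesenchymal progenitors that condense around the tips of the branching ureteric bud. OSR1 marks the earliest mesenchyme of this lineage, WT1, PAX2, SALL1, EYA1 and SIX2 maintain or license the progenitors, and PAX8 joins PAX2 as progenitors turn into the epithelial renal vesicle. FOXD1 marks the neighbouring stromal progenitors, which give rise to interstitial cells, pericytes and mesangium. MEOX1 is a homeobox gene of the somites and, in mouse, also of the cap mesenchyme.

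HOXB13 itself had 14.6 FPKM (fragments per kilobase of transcript and per 1 M mapped fragments) in sg-control and 4.50 FPKM in sg1-HOXB13. From the steps between low values, depth came to about 24.0 M reads for sg-control and 23.5 M for sg1-HOXB13. Checked against markers of the labelled tumor type, SMARCB1, the chromatin subunit lost in rhabdoid tumors, had 0.113 and 0.0577 FPKM, whereas vimentin (VIM) had 560 and 568. None of 6 leukocyte and none of 6 endothelial markers reached 1 FPKM in either library. Their summed levels were 0.905 and 0.790 FPKM for leukocytes and 0.0462 and 0.158 FPKM for endothelium, with KDR, TEK, CDH5 and CD3E listed at 0 in both.

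Only FOXD1, MEOX1 and PAX2 of the 9 genes were expressed, taken as 1 FPKM or more in either library, and all 3 passed that level in both. The limit of 1 FPKM was passed by 51.0% of all symbols. OSR1 was next, with less than 1 FPKM in both libraries, and the remaining WT1, PAX8, SIX2, EYA1 and SALL1 lay below 0.1 FPKM in both. Of the 9, 8 had a value above 0 in sg-control and 6 in sg1-HOXB13. The summed level of the 9 was 23.1 FPKM in sg-control and 29.7 FPKM in sg1-HOXB13, and MEOX1 and FOXD1 carried most of it. Of the nephron progenitor markers SIX2, CITED1, WT1, PAX2, SALL1, EYA1 and OSR1, 2 of 7 reached 1 FPKM, so most of the set that defines these progenitors was below that level in the line. Of the stroma markers FOXD1, TBX18, PDGFRA and PDGFRB, 2 of 4 reached it, FOXD1 and PDGFRB.

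The promoter letters of FOXD1 and PAX2 are set out here beside those of SIX2, a member near 0 in both. FOXD1 was past 2-fold lower in sg1-HOXB13, and PAX2 had a ratio below 0 that stayed short of 2-fold. RefSeq promoter windows (GRCh38.p14) were searched for 5 of the 9 genes, FOXD1, PAX2, PAX8, SIX2 and WT1. They came to 9 windows because PAX2 and WT1 have several starts. Windows of EYA1, SALL1, OSR1 and MEOX1 were not searched, so the motif counts below do not cover these genes. Each sequence is the 250 bases before an annotated start, 5′ to 3′ on the strand of the gene, with capitals marking the GC box GGGCGG, the box CCAAT or the core TTTAT on either strand.
FOXD1, chr5:73448778-73449027, minus strand: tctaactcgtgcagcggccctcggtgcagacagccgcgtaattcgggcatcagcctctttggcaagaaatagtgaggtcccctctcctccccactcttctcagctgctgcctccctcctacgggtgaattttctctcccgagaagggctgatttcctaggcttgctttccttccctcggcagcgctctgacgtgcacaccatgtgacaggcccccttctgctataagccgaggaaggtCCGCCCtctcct
PAX2, upstream start, chr10:100735146-100735395, plus strand: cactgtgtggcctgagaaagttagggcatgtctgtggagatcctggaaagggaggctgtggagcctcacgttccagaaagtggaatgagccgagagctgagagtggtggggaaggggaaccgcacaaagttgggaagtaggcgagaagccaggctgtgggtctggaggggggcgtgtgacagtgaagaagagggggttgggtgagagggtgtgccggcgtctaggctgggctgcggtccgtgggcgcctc
PAX2, downstream start, chr10:100745332-100745581, plus strand: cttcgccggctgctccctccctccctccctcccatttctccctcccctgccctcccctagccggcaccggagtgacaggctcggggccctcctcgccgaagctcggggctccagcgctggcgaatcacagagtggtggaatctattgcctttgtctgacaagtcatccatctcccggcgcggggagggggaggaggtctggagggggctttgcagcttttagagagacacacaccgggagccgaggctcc
SIX2, chr2:45009453-45009702, minus strand: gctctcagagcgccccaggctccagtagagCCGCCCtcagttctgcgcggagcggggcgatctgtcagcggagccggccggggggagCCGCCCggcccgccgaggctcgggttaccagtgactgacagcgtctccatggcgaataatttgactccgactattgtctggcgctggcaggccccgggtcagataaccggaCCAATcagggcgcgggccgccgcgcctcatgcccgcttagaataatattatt
The FOXD1 window held 1 GGGCGG and had a GC content of 58.8%, near the median of 58.0% over 35116 windows of the same length. The PAX2 windows had 61.6% and 66.0% GC and none of the marked motifs. In SIX2, whose window had 65.6% GC, there were 2 GGGCGG and 1 CCAAT. The search covered both strands for TTTAT, a core of posterior HOX sites, and for the longer HOXB13-type site CCAATAAA, which contains the CCAAT box. It also covered TAATTA as a general homeobox core, GGGCGG as the GC box and TATAAA as the TATA box. The core TTTAT was found in 1 of the 9 windows, that of PAX8, against 32.7% of all windows. The PAX8 window also held 2 CCAAT, and 1 of the 4 WT1 windows held TAATTA. The longer site CCAATAAA was in none of the 9 windows, against 0.863% of all. The CCAAT box occurred in 32.0% of all windows, GGGCGG in 42.6%, TATAAA in 10.7% and TAATTA in 4.35%. The start of FOXD1 in GENCODE 29 lies 250 bases downstream of the RefSeq start, so this window is tied to the RefSeq start alone.

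FOXD1, the forkhead factor of stromal progenitors, was lower in sg1-HOXB13. Its level was 11.6 FPKM in sg-control and 1.57 FPKM in sg1-HOXB13, a log2 ratio of −2.30 on the log2(FPKM + 1) scale, or 7.40-fold lower without the added 1. The gene is a single exon on chromosome 5 from 72742085 to 72744352 (hg19), and with that length the levels stood for about 578 and 76 reads. The counting interval of the fold ran from 5.86 to 9.59 (exact binomial, 95%), which covers counting error only and no variation between cultures. Only 57 of the 11970 genes at 1 FPKM or more in either library, or 0.476%, had ratios at or below that of FOXD1. In bulk RNA, fewer cells with FOXD1 and less FOXD1 RNA per cell cannot be told apart. Among 43 forkhead genes of the FOXA to FOXS series, a group chosen after values were seen, FOXD1 had rank 5 by level in sg-control and rank 15 in sg1-HOXB13. The genes most like FOXD1 in both libraries, by Euclidean distance of log2(FPKM + 1) over the 2 values, were FLJ41350 (10.8 and 1.80 FPKM), FAM228B (10.4 and 1.88 FPKM) and LBX1 (11.1 and 1.18 FPKM).

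MEOX1, the homeobox member, went the other way. It had 8.59 FPKM in sg-control and 25.9 FPKM in sg1-HOXB13 (log2 ratio 1.49), or 3.01-fold higher. With the longest coding transcript in GENCODE 29, 2707 nt, these levels stood for about 516 and 1524 reads, and the counting interval of the fold ran from 2.73 to 3.34. In the sg1-HOXB13 library MEOX1 had rank 3217 by level among all symbols, against 7107 in sg-control, and 1.83% of tested genes had a ratio as high or higher. Its nearest genes by the same distance were CPNE5 (8.28 and 26.2 FPKM), the linker histone gene HIST1H1C (8.25 and 27.0 FPKM) and FAM108A1 (9.24 and 24.8 FPKM). The paralog MEOX2 was listed at 0 in both libraries.

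PAX2, the paired-box factor of the intermediate mesoderm, ureteric bud and cap mesenchyme, was expressed at a low level. Its level was 2.75 FPKM in sg-control and 1.52 FPKM in sg1-HOXB13, a log2 ratio of −0.57 that stayed short of 2-fold, or 1.80-fold lower without the added 1. The corresponding reads were about 260 and 141 for a transcript of 4140 nt, with a counting interval of 1.47 to 2.23 for the fold. The interval lay above 1, while 14.7% of all tested genes had ratios at or below that of PAX2. By level the 3 expressed members ran FOXD1, MEOX1, PAX2 in sg-control and MEOX1, FOXD1, PAX2 in sg1-HOXB13. With the estimated reads, in the sg-control library the counting interval of FOXD1 (10.7 to 12.6 FPKM) lay above that of MEOX1 (7.85 to 9.35 FPKM). In the sg1-HOXB13 library the intervals of FOXD1 (1.23 to 1.96 FPKM) and PAX2 (1.28 to 1.80 FPKM) overlapped, so their order there is not resolved.

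By the rule of 2-fold, then, FOXD1 was lower, MEOX1 higher and PAX2 neither. Over all tested genes 4.51% were lower, 4.25% higher and 8.76% past 2-fold either way, and log2 ratios had their median at −0.05 and quartiles at −0.38 and 0.29. With 3 expressed members no share can be set against this.

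**Figure D1:**
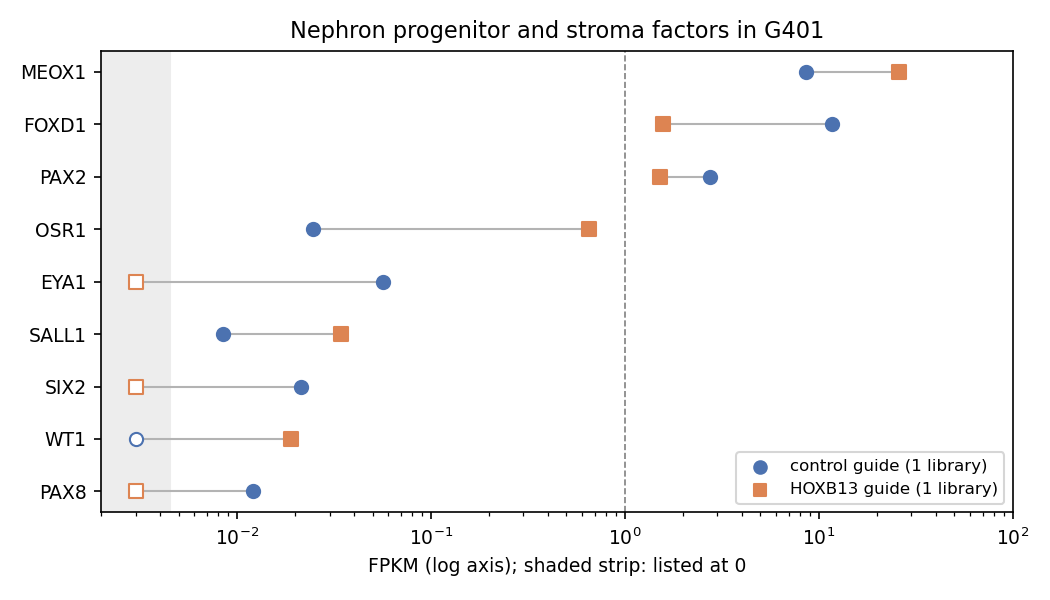
FPKM of the 9 kidney factors in the sg-control library (circles) and the sg1-HOXB13 library (squares) on a log axis, 1 library each and so without error bars. MEOX1, FOXD1 and PAX2 lie right of the dashed line at 1 FPKM in both libraries, OSR1 lies left of it at 0.0246 and 0.653 FPKM, and open symbols in the shaded strip are values listed at 0.

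OSR1, the odd-skipped zinc finger factor, had the largest fold of the members above 0 in both libraries, at a level under the limit for testing. It had 0.0246 FPKM in sg-control and 0.653 FPKM in sg1-HOXB13, and the ratio, divided by the value of 1 read in one library over the other (1.02), was 26.0, so the values stood for 26 reads against 1. With so few reads the fold of 26.5 had a counting interval from 4.36 to 1088. On the log2(FPKM + 1) scale the ratio was 0.69, and with 0.1 FPKM added it was 2.60. OSR1 lies on chromosome 2 from 19551246 to 19558372 (hg19), and the only other row within 200 kb was MIR4757, listed at 0 in both libraries.

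The other members were at the edge of detection, where a value stands for a handful of reads. SALL1, a zinc finger repressor that binds the NuRD complex, had 0.00842 FPKM in sg-control and 0.0344 FPKM in sg1-HOXB13, about 1 and 4 reads, and the fold of 4.09 had a counting interval from 0.404 to 201. EYA1, a phosphatase that serves as co-activator of SIX2 and its relatives, had 0.0568 FPKM in sg-control, about 5.62 reads for a transcript of 4326 nt, and was listed at 0 in sg1-HOXB13, where 3 reads would have given 0.0309 FPKM. SIX2, which keeps nephron progenitors self-renewing, had 0.0213 FPKM in sg-control, about 1.03 reads, and was listed at 0 in sg1-HOXB13. PAX8, the paired-box partner of PAX2, had 0.0121 FPKM in sg-control, about 1.15 reads, and was likewise listed at 0 in sg1-HOXB13. WT1, the zinc finger factor named after Wilms tumor, was listed at 0 in sg-control and had 0.0191 FPKM in sg1-HOXB13, about 1.31 reads. For SIX2, PAX8 and WT1 the values in both libraries were below what 3 reads would give, between 0.0316 and 0.0637 FPKM, so no difference was detectable at this depth. The antisense gene WT1-AS, 203 bases from WT1, and LOC654433, which overlaps PAX8, were listed at 0 in both libraries.

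Near-absent SIX2, EYA1 and SALL1, and OSR1 with less than 1 FPKM, had 1 or 2 paralogs that were expressed. Of the relatives of SIX2, SIX4 had 6.26 and 5.75 FPKM and SIX5 9.89 and 7.05 FPKM in the sg-control and sg1-HOXB13 libraries. EYA3 had 7.69 and 8.71 FPKM, whereas EYA1, EYA2 and EYA4 stayed below 1 FPKM. In the SALL family, SALL4, a zinc finger factor of pluripotent and germ cells, had 32.5 and 31.9 FPKM, and SALL2 had 6.74 and 9.43 FPKM. OSR2 had 3.21 and 2.49 FPKM, so that OSR1 was 0.761% of the summed OSR level in sg-control and 20.8% in sg1-HOXB13.

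In the PAX, FOXD and MEOX families the members themselves held most of the level. PAX2 and PAX8 together made up 90.3% of the summed PAX level in sg-control and 52.6% in sg1-HOXB13, where PAX6, an eye and neural paired-box factor, had 1.35 FPKM after 0.269 in sg-control. FOXD1 made up 89.8% of the summed level of FOXD1 to FOXD4 in sg-control and 55.8% in sg1-HOXB13, with FOXD2 at 0.717 and 0.950 FPKM. EGR1, from the zinc finger family closest to WT1, had 3.41 and 4.06 FPKM.

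Of the 27 paralogs, 8 were expressed and none passed 2-fold, beside 51.0% of all symbols expressed and 8.76% of tested genes past 2-fold. Of the 8 ratios, 4 were above 0 and 4 below it, with a median of 0.07 on the log2 scale. PAX6 had the largest ratio of them (log2 0.89), and it passed 2-fold when 0.1 FPKM was added in place of 1 (log2 1.98).

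**Figure D2:**
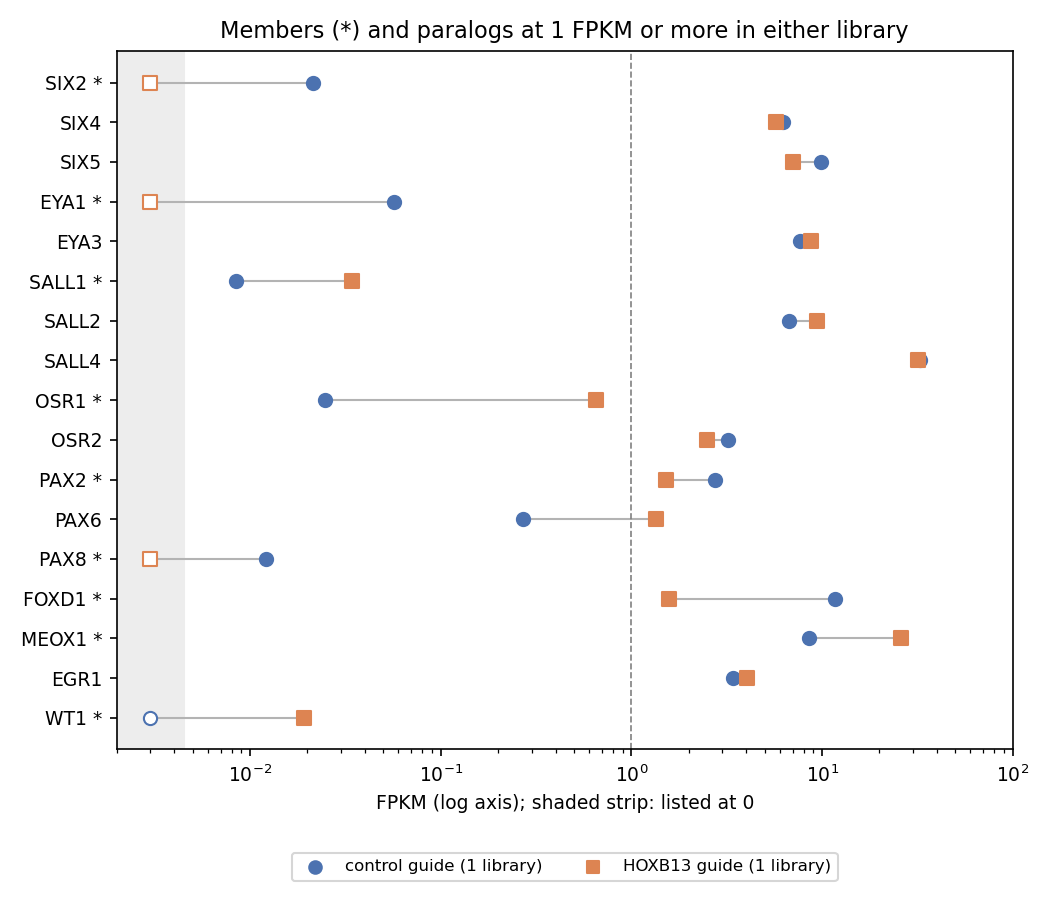
FPKM of the 9 kidney factors (asterisks) and of their paralogs at 1 FPKM or more in at least 1 library, on a log axis, with circles for the sg-control and squares for the sg1-HOXB13 library. SALL4 at 32.5 and 31.9 FPKM, SIX5, EYA3 and OSR2 lie right of the 1 FPKM line while SALL1, SIX2, EYA1 and OSR1 of the same families lie left of it.

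Other genes of nephron progenitors mostly had ratios below 0. Of 20 on the list 9 were expressed, 3 of them past 2-fold lower and none past 2-fold higher. Over all genes, 51.0% of symbols were expressed, and 4.51% of tested genes were past 2-fold lower and 4.25% higher. The same shares stand beside the counts of each list below, and the lists are too short to be set against them. Ratios were below 0 for 8 of the 9 expressed genes of the list, beside 54.4% of all tested genes, and their median was −0.76 on the log2 scale. Centred on housekeeping genes, 6 were past 2-fold lower, ETV4, ETV5 and HOXA11 being added. The list was chosen with earlier results of these data known, so no conclusion is drawn from its comparison with all genes. FGF8, a growth factor that developing nephrons need in mouse, had 39.7 FPKM in sg-control and 6.35 FPKM in sg1-HOXB13 (log2 −2.47). UNCX, a homeobox gene that reached 1 FPKM only in sg-control, had 3.05 and 0.427 FPKM (log2 −1.50). HOXC11, of the HOX group that mouse kidneys need to form, had 11.0 and 3.92 FPKM (log2 −1.29).

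Members of the list with smaller ratios were HOXA11 at 8.75 and 4.75 FPKM and ETV5, a target of FGF signalling, at 28.7 and 16.1 FPKM. The RNA-binding protein gene LIN28B, a block on let-7 maturation, had the highest level of the list in sg-control, with 51.7 and 42.9 FPKM. The progenitor co-activator gene CITED1 had 1.48 and 1.10 FPKM, also below 2-fold. GDNF, the mesenchymal ligand of RET, was listed at 0 in both libraries.

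Genes of the renal vesicle and early nephron had 7 of 21 expressed, and their median was 0.65 on the log2 scale. Of the 7, 3 were past 2-fold higher and none past 2-fold lower, beside 4.25% and 4.51% of all tested genes. CDH4, which encodes R-cadherin, had 0.190 FPKM in sg-control and 9.91 FPKM in sg1-HOXB13 (log2 3.20). It reached 1 FPKM only in sg1-HOXB13, so it was tested only through the library where it is high. NOTCH2, the main Notch receptor of nephron patterning in mouse, had 10.7 and 25.6 FPKM (log2 1.19), while NOTCH1 had 2.92 and 5.15 FPKM, short of 2-fold. The cyclin gene CCND1 had 26.5 and 54.3 FPKM, just past 2-fold. LHX1, a LIM-homeobox gene that the renal vesicle requires, had 2.01 and 0.737 FPKM (log2 −0.79), and it was past 2-fold lower with 0.1 FPKM added (log2 −1.33), with nothing added (log2 −1.45) and centred on housekeeping genes (log2 −1.15). The WNT antagonist gene DKK1 had the highest level, 361 and 407 FPKM, and the vesicle genes WNT4 and JAG1 were below 0.3 FPKM in both libraries. Centred on housekeeping genes, NOTCH2 (log2 0.83) and CCND1 (log2 0.65) fell short of 2-fold, and CCND1 did so too at equal total FPKM (log2 0.98).

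Other stroma genes had ratios in both directions, 6 of 9 above 0. Of 24 on the list 9 were expressed, 2 of them past 2-fold higher and none past 2-fold lower, and the median was 0.72 on the log2 scale. Centred on housekeeping genes, MEIS2 (log2 −1.28) and RARA (log2 −1.08) were past 2-fold lower. The fibrillar collagen gene COL3A1 had 40.6 FPKM in sg-control and 126 FPKM in sg1-HOXB13 (log2 1.61), and ECM1, an extracellular matrix protein, had 14.5 and 43.9 FPKM (log2 1.54). COL1A1 had 21.4 and 42.4 FPKM and the growth factor receptor gene PDGFRB 11.6 and 20.4 FPKM, both short of 2-fold, although COL1A1 reached it when ratios were centred on the median of all genes (log2 1.01). The homeobox cofactor gene MEIS2 had 71.6 and 37.3 FPKM (log2 −0.92). Among nuclear receptor genes, NR2F1 had 51.1 and 44.9 FPKM, NR2F2 9.18 and 15.7 FPKM and the retinoic acid receptor gene RARA 6.10 and 3.31 FPKM. The stromal markers PDGFRA and TBX18 were below 0.1 FPKM in both libraries, and TCF21 and DCN were listed at 0.

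Ureteric bud and collecting duct genes went both ways, with 8 of 21 expressed, of which 2 passed 2-fold in each direction and the median was 0.56 on the log2 scale. CDH1, which encodes E-cadherin, had 32.3 FPKM in sg-control and 1.28 FPKM in sg1-HOXB13 (log2 −3.87), and SPRY1, an inhibitor of RET and FGF receptor signalling, had 107 and 49.4 FPKM (log2 −1.10). TFAP2A, an AP-2 transcription factor that reached 1 FPKM only in sg1-HOXB13, had 0.127 and 5.45 FPKM (log2 2.52). FOXI1, a forkhead gene of intercalated cells, passed 2-fold from a value listed at 0 in sg-control to 1.16 FPKM in sg1-HOXB13, and fell short of it when centred on housekeeping genes (log2 0.75). WNT11, a signal of ureteric tips, had 1.71 and 4.07 FPKM (log2 0.90), which passed 2-fold with 0.1 FPKM added (log2 1.20). The keratin genes KRT8 and KRT18 were the most abundant, and their many processed pseudogenes make the reads uncertain, with 1273 and 1023 FPKM in sg-control and 1810 and 1572 FPKM in sg1-HOXB13. GATA3 and RET, which mark the duct and its tips, stayed below 0.3 FPKM in both.

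Among podocyte genes 7 of 17 were expressed, 1 of them past 2-fold higher and 2 past 2-fold lower, and the median was −0.49 on the log2 scale. VEGFA, the angiogenic ligand, had 46.5 FPKM in sg-control and 6.83 FPKM in sg1-HOXB13 (log2 −2.60), and the forkhead gene FOXC2 had 11.1 and 4.46 FPKM (log2 −1.15). SYNPO, which encodes the actin-binding protein synaptopodin, had 1.53 and 11.0 FPKM (log2 2.25). LMX1B, a LIM-homeobox gene, had 79.9 and 46.4 FPKM and FOXC1 6.41 and 4.27 FPKM, both short of 2-fold, although LMX1B passed it when centred on housekeeping genes (log2 −1.13). The filament gene NES had 46.9 and 61.0 FPKM. Nephrin (NPHS1) was below 0.3 FPKM in both libraries. In the tubule list 1 of 18 genes was expressed, GGT1, a gamma-glutamyltransferase, at 13.7 and 7.69 FPKM, which was past 2-fold lower only when centred on housekeeping genes (log2 −1.11). UMOD was listed at 0 in both.

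**Figure D3:**
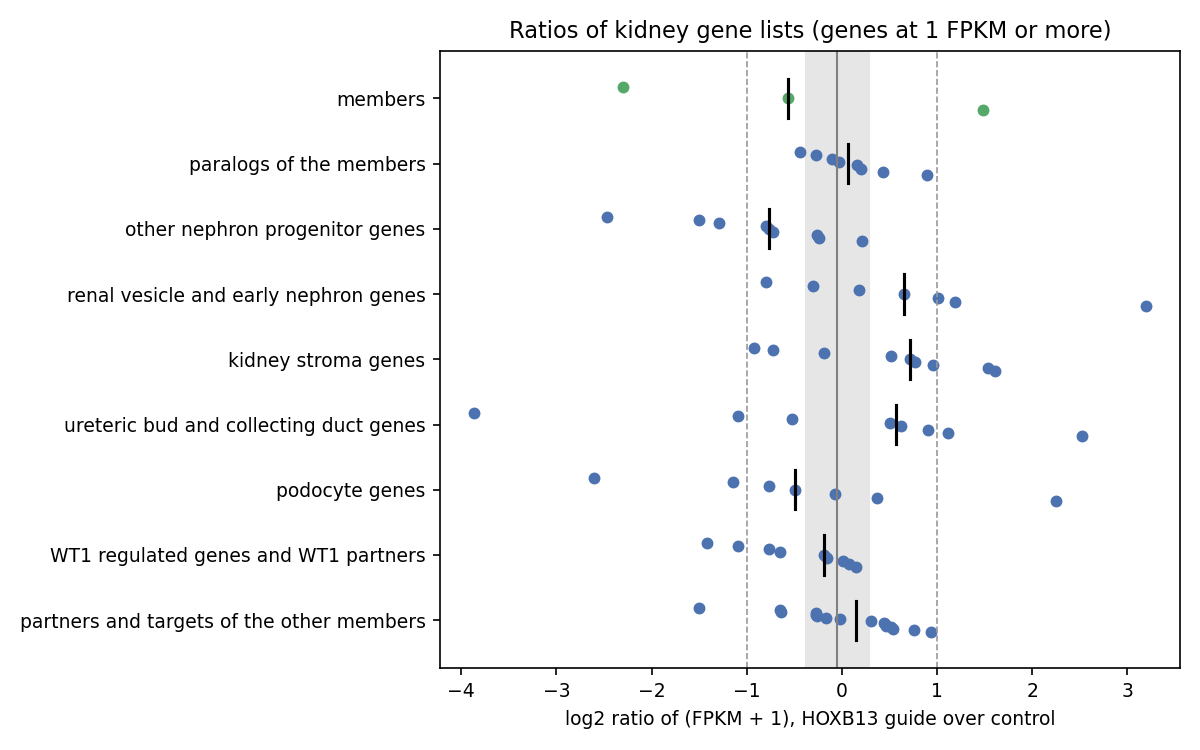
Log2 ratios of (FPKM + 1), HOXB13 guide over control, for the expressed genes of each list, with a black bar at each list's median, the grey band from −0.38 to 0.29 for the quartiles of all tested genes and dashed lines at 2-fold. Genes of the nephron progenitor list lie mostly left of the band, stroma genes mostly right of it, and FOXD1 and MEOX1 lie outside the dashed lines on opposite sides. The lists were chosen with earlier results of these data known.

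Genes tied to WT1 had 9 of 22 expressed, 2 of them past 2-fold lower and none past 2-fold higher, and the median was −0.19 on the log2 scale. Centred on housekeeping genes, BCL2 was also past 2-fold lower. CITED2, a transcriptional co-activator, had 278 FPKM in sg-control and 103 FPKM in sg1-HOXB13 (log2 −1.42), and SPRY1, which the ureteric bud list also holds, was the other. As deposited, BCL2 had 12.6 and 7.67 FPKM, short of 2-fold. WTAP, first found as a WT1-binding protein and part of the RNA methylation complex, had 88.5 and 77.3 FPKM. The WT1 co-repressor gene BASP1 was below 0.3 FPKM in both libraries.

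Partners and targets of the other members had 16 of 24 expressed, 1 of them past 2-fold lower and none past 2-fold higher, and the median was 0.14 on the log2 scale. The one was CDKN2A, a cell cycle inhibitor gene, with 14.5 and 4.49 FPKM (log2 −1.50). The NuRD subunit genes through which SALL1 acts were abundant in both libraries, with CHD4 at 78.6 and 113 FPKM, HDAC1 at 80.2 and 110 FPKM and RBBP7 at 71.0 and 104 FPKM. The other NuRD genes of the list were RBBP4 at 29.9 and 41.2 FPKM, HDAC2 at 34.8 and 28.6 FPKM, MTA1 at 59.8 and 49.5 FPKM and GATAD2A at 26.6 and 26.2 FPKM. None of the NuRD genes passed 2-fold, and their ratios lay on both sides of 0. The PAX-interacting gene PAXIP1 had 7.25 and 14.8 FPKM (log2 0.93), which passed 2-fold with 0.1 FPKM added (log2 1.02). CDKN1A had 31.0 and 53.3 FPKM, and the co-repressor genes TLE1 and TLE2 had 1.64 and 13.7 FPKM in sg-control and 0.679 and 8.40 FPKM in sg1-HOXB13. TLE1 passed 2-fold with 0.1 FPKM added (log2 −1.16) and when centred on housekeeping genes.

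The genes beside the 3 expressed members were compared with them. Over all tested genes 8.76% were past 2-fold either way, and the neighbours are too few to be set against that share. FOXD1 had 3 tested genes within 200 kb, none past 2-fold. BTF3, 49.9 kb away, had 836 FPKM in sg-control and 639 FPKM in sg1-HOXB13, ANKRA2 6.26 and 5.90 FPKM and UTP15 15.2 and 9.85 FPKM. PAX2, on chromosome 10 from 102505468 to 102589698 (hg19), had 7 tested neighbours, none past 2-fold, and their median was 0.28 on the log2 scale. The nearest, FAM178A at 82.6 kb, had 17.7 and 23.7 FPKM.

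MEOX1, on chromosome 17 from 41717758 to 41739262 (hg19), had 5 tested neighbours, 1 of them past 2-fold, beside 8.76% of all tested genes. That one was SOST, a secreted WNT antagonist of bone, which lies 91.8 kb beyond MEOX1 with no other row of the tables between them. SOST had 3.43 FPKM in sg-control and 102 FPKM in sg1-HOXB13 (log2 4.54), the same direction as MEOX1. Whether the 2 changes are linked was not tested. DUSP3, a phosphatase gene 104 kb from MEOX1 and next to SOST, had 61.6 and 60.5 FPKM. On the other side ETV4 had 26.1 and 15.4 FPKM and the helicase gene DHX8 10.9 and 20.7 FPKM, both short of 2-fold.

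**Figure D4:**
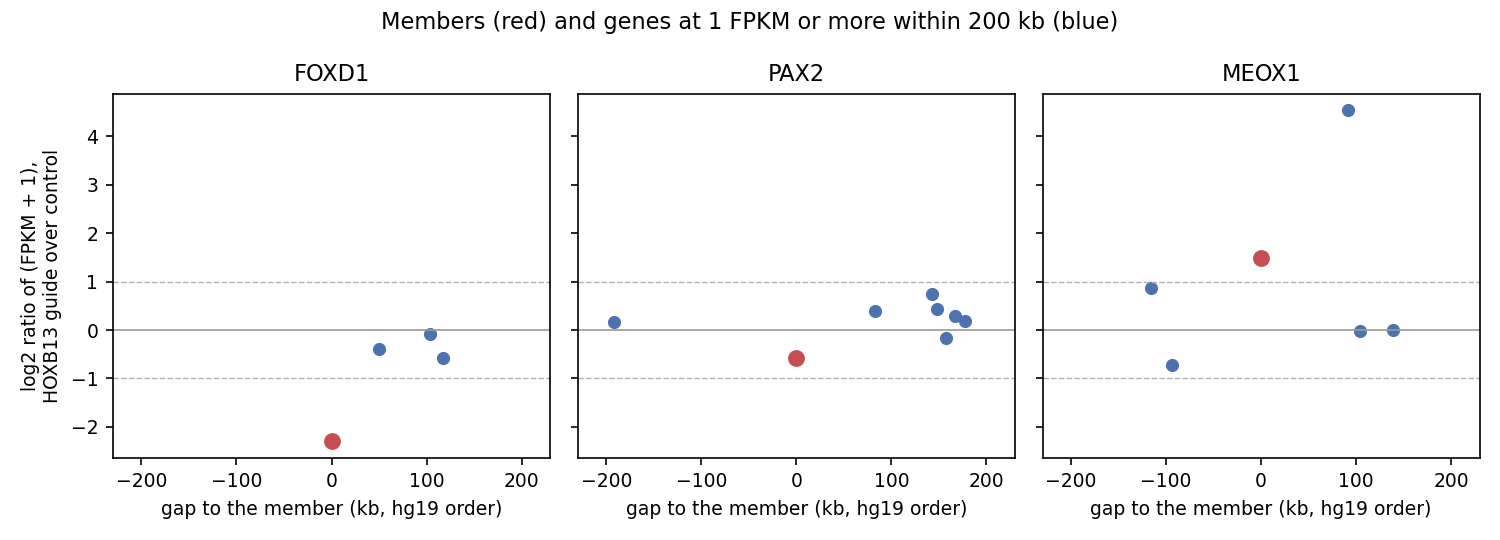
Log2 ratios of (FPKM + 1) of FOXD1, PAX2 and MEOX1 (red, at 0) and of tested genes within 200 kb (blue) against the gap between the genes in kb. SOST at 91.8 kb from MEOX1 is the only blue point past the dashed 2-fold lines, and the neighbours of FOXD1 lie between −0.57 and −0.07.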

How the data were processed

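RNA was measured in 2 G401 samples grouped by title, 1 sg-control and 1 sg1-HOXB13 library. Per the labels, ribosomal RNA was removed before an Ion PI library was prepared, and the tools were Bowtie, TopHat and Cufflinks with build hg19, per the submitters' processing notes. Versions, settings and strand mode are not given in the sources used here, so reads of overlapping antisense genes cannot be told apart. The authors deposited FPKM values per gene, 25001 rows per library, with no counts. The value 0.001 was read as 0, failed estimates (2 and 3 rows) were left out and rows sharing a symbol were summed.

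A gene was tested at 1 FPKM in either library, and its ratio was log2 of (FPKM + 1), HOXB13 guide over control, unscaled, called at 2-fold. No test was run because each group had 1 library. The 9 genes and the lists were chosen with earlier results of these data known. The text names every member, every paralog at 1 FPKM or more, up to 5 genes with the largest absolute ratio and up to 3 with the highest level per list, neighbours, and the 3 nearest profiles. Genes named as near 0, and CITED1, FOXD2, RARA, NR2F2 and 4 NuRD genes, were added after their values were seen. A few genes of the lists are not reported here.

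Depth came from 2396 genes below 0.3 FPKM in both libraries. Divided by 1.02, 57.1% of their ratios lay within 0.0002 (relative) of a ratio of whole numbers no greater than 12, and 0.668% did when that divisor was moved by 1%. Among 85 single-exon genes 38 agreed on 1 depth when 201 nt were subtracted from the length. This length and depth were picked as the pair on which most of these genes agreed, so the 38 are no check of them. Depth and reads are therefore approximate. Lengths came from GENCODE 29, except that of FOXD1, which was the width of its deposited locus. Intervals and the limit of 3 reads cover counting error only. The code for the ratios was checked on simulated data, with large folds planted in genes well above 1 FPKM. That check covers neither low levels, nor folds near 2-fold, nor differences between cultures. In all, 11 alternatives were tried. Scripts ran in Python 3.11.15 with scipy 1.17.1, matplotlib 3.10.9, pandas 2.3.3 and numpy 2.4.6.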

Additional observations from a re-analysis of the deposited data

How the results depend on the processing

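FOXD1 stayed at least 2-fold lower and MEOX1 at least 2-fold higher under all 11 alternatives, with log2 ratios from −2.89 to −2.24 and from 1.13 to 1.59. PAX2 stayed below 0 and short of the fold under the 10 that kept it, from −0.93 to −0.52, and a filter at 5 FPKM left it out. The changes of filter, the highest row of a symbol and the 1.5-fold rule cannot alter these ratios. Only the changes of pseudocount and of scaling bear on their size. With no filter on low values all 23452 symbols counted as expressed, the 9 factors among them, so that setting says nothing about their expression. Over all tested genes, 731 were higher and 849 lower with a pseudocount of 0.1 FPKM, and 738 and 874 with none, against 509 and 540 in the main setting. A 1.5-fold rule gave 1413 higher and 1680 lower. Centring on the housekeeping list gave 264 higher and 1431 lower, 15.6% higher against 48.5%, because it moved all ratios by −0.36. FOXD1 and MEOX1 are therefore past 2-fold also relative to that shift. No paired analysis was possible because each group had 1 library. Counts of listed genes past 2-fold moved by over 1.5 times, or to or from 0, in 19 of 200 cases, leaving out the 1.5-fold rule. Some of these cases could not move, such as those with no filter on low values. The 19 of 200 is therefore no measure of stability. Differences between cultures cannot be separated from an effect of the guide with 1 library each, and depth limits SIX2, PAX8, WT1, EYA1 and SALL1 to a handful of reads.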

Other observations

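Among the 43 forkhead genes, a group chosen after the values were seen, 19 were expressed, of which 2 passed 2-fold lower and 1 passed it higher in the sg1-HOXB13 library, and the median was −0.37 on the log2 scale. FOXD1 and FOXC2 were the lower ones and FOXI1, listed at 0 in sg-control, the higher one. Over all genes, 51.0% of symbols were expressed, and 4.51% of tested genes were past 2-fold lower and 4.25% higher. The highest levels belonged to FOXK2, at 27.6 FPKM in sg-control and 21.1 FPKM in the sg1-HOXB13 library, and to FOXM1, a factor of dividing cells, at 23.5 and 31.5 FPKM. FOXS1 had 0.933 and 2.67 FPKM and FOXF2, a mesenchymal forkhead gene, 0.231 and 1.37 FPKM. Both were short of 2-fold on the log2(FPKM + 1) scale and past it without the added 1. The counts of this group were not repeated under the other settings, and FOXI1 fell short of 2-fold when centred on housekeeping genes (log2 0.75).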
